A study of Mus musculus with 8 samples.

Results

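The tubulin genes described here are 4 α-tubulin genes (Tuba1a, Tuba1b, Tuba1c and Tuba4a) and 6 β-tubulin genes (Tubb2a, Tubb2b, Tubb3, Tubb4b, Tubb5 and Tubb6), 10 of the 13439 genes listed for mouse left ventricle. They were selected by name and by presence in the authors' table, which holds genes that exceeded 1 CPM (reads of a gene per 1000000 reads assigned to genes) in at least 1 library. The family was picked with earlier results of these data known, so its levels and counts describe it and are no independent support for any pattern. All 10 passed the low-value filter of the test (at least 1 CPM in at least 2 libraries), and for Tubb3, the least abundant, 3 of the 4 sham libraries were above 1 CPM as well.

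Left ventricles came from 4 groups with 2 libraries each. Floxed mice (Lin28afl/fl, control littermates in which Lin28a was not deleted) and cardiac-specific knockouts (Lin28aCko, here cKO) underwent sham surgery or TAC (transverse aortic constriction), in which a narrowed aorta raises the load on the left ventricle. TAC hearts were taken on day 5, and no day is given for sham hearts. No age, strain or Cre driver is named in the labels. They do not state that the duplicates were separate animals, so the spread behind each p-value is that between these libraries. The cKO sham duplicates differed in Xist, the X-inactivation RNA, at 0 and 44.3 CPM, and so were not repeats of 1 RNA sample. The floxed sham duplicates differed in Myl7, an atrial myosin light chain, at 6.16 and 133 CPM. The cKO TAC duplicates did so at 4.03 and 66.2 CPM, so neither pair were repeats of 1 RNA sample. Whether they came from separate animals stays unknown. In floxed TAC hearts the spread may be technical. Lin28a itself was not listed under that symbol, so no level is given for either genotype. Its deletion is known from the labels alone.

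Microtubules are hollow polymers of α- and β-tubulin dimers. In heart muscle cells they run between the sarcomeres, carry RNA, organelles and channels, and bear load as the cell shortens, and a denser network of more stable microtubules is a known feature of pressure-overloaded myocardium. Mammals encode each subunit in several genes whose proteins differ mostly in their acidic tails, and these tails carry most of the chemical marks that regulate motors and associated proteins.

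The ends of the coding sequences show where the α-tubulin genes differ in a way that matters for those marks. Most α-tubulin genes encode a final tyrosine, which the vasohibin enzymes remove and tubulin tyrosine ligase puts back. The last 39 bases of the coding sequences of 3 α-tubulin genes, on the GRCm38 (mm10) build with the GENCODE annotation, are printed 5′ to 3′ on the coding strand, with the last codon before the stop in capitals.
Tuba1b (chr15:98931425-98934565, minus strand): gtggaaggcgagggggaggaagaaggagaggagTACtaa
Tuba1c (chr15:99029891-99038110, plus strand): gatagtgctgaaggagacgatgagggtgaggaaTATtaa
Tuba4a (chr1:75214228-75219865, minus strand): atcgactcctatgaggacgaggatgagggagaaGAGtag
In Tuba1b and Tuba1c the capitals are tyrosine codons. In Tuba4a they are a glutamate codon, so this gene encodes an α-tubulin that lacks the terminal tyrosine from the start. The tails of the β-tubulin genes have no terminal tyrosine codon, and they are shown because this is where β-tubulins are known to differ most.
Tubb2a (chr13:34074274-34078007, minus strand): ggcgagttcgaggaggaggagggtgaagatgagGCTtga
Tubb2b (chr13:34126748-34130466, minus strand): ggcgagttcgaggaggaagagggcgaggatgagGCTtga
Tubb3 (chr8:123411424-123422015, plus strand): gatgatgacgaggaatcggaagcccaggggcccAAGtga
Tubb4b (chr2:25222160-25224702, minus strand): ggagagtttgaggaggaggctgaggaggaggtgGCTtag
Tubb5 (chr17:35833921-35838306, minus strand): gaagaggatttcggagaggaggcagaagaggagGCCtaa
Tubb2a and Tubb2b end in nearly the same letters, whereas Tubb3 ends in a lysine codon.

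Several of these genes are near copies, which limits how far their values can be told apart. The coding sequences of Tuba1a and Tuba1b have the same length and are identical at 98.3% of bases, and those of Tubb2a and Tubb2b at 96.5%. Of all 50-base windows in the exons, the read length used, 72.9% in Tuba1a, 73.8% in Tuba1b and 61.0% in Tuba1c also occur in another annotated gene. The corresponding shares are 49.6% in Tubb2a, 39.3% in Tubb2b and 50.9% in Tubb4b, the last mostly with its pseudogenes Tubb4b-ps1 and Tubb4b-ps2. Tuba4a (1.11%), Tubb5 (0.115%), Tubb3 and Tubb6 (both 0%) are close to unique. The sources used here do not say how the authors assigned reads that match several genes, so the split within the Tuba1 group and between Tubb2a and Tubb2b is uncertain, and their sums are given below. The level of a gene with many shared windows beside that of a nearly unique gene is uncertain as well. The Tuba1 genes lie side by side in the order Tuba1b, Tuba1a, Tuba1c with gaps of 15.3 and 76.2 kb, and Tubb2a and Tubb2b are 48.7 kb apart.

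Depth and composition of the libraries bear on all values. Totals were between 10315902 and 21871570 reads, and the upper limit for a gene with no read (3 reads) was 0.137 to 0.291 CPM; the member with the fewest reads was Tubb3, with 9 reads in 1 library. Such limits hold for counting error alone, because the reads carried no molecular identifiers and need not be independent. Atrial transcripts marked 3 libraries, floxed sham 2, cKO sham 2 and cKO TAC 2, in which Myl7 (an atrial myosin light chain) was at 65.0 to 133 CPM against 0.511 to 6.16 CPM in the others. Xist reached 44.3 CPM in cKO sham 2, against no more than 0.173 CPM elsewhere, and the sex of the animals was not tested. Cardiomyocyte markers were high in every library (3.43% to 7.66% of all reads for the sum of 10 genes). In bulk samples of this kind, fewer cells of a type and less RNA per cell cannot be told apart.

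In sham hearts Tuba4a had the most reads per length of the tubulin genes. Levels between genes are compared here as CPM per kb of exon. Windows that also occur in another gene make up 1.11% in Tuba4a, 73.8% in Tuba1b and 50.9% in Tubb4b. If reads that match several genes were left out, Tuba1b and Tubb4b are understated, so the order of the transcripts themselves is uncertain. Floxed sham hearts had 471 ± 57.1 CPM per kb of Tuba4a (SD, n = 2), followed by Tubb4b, a broadly expressed β-tubulin, at 252 ± 21.4 and Tuba1b, a ubiquitous α-tubulin, at 223 ± 57.1. The libraries of Tubb4b and Tuba1b overlapped in this order. Tuba1a, best known from developing neurons, was at 111 ± 22.3, and Tubb5, a β-tubulin of most cell types, at 72.7 ± 16.8 CPM per kb. Below them came Tubb6 at 22.6 ± 3.02, Tubb2a at 17.5 ± 2.31, Tuba1c at 10.5 ± 1.80, Tubb2b at 5.17 ± 0.42 and, last, Tubb3, the β-tubulin typical of neurons, at 0.526 ± 0.302 CPM per kb. In floxed TAC hearts the order changed. Tuba1b was first at 840 ± 77.0 CPM per kb, while Tubb4b (481 ± 37.4), Tuba4a (444 ± 14.4) and Tuba1a (443 ± 70.4) followed within their spread. In cKO TAC hearts Tuba4a was first by its mean, at 399 ± 96.4 CPM per kb, and its libraries overlapped with those of Tuba1b (337 ± 135).

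Pressure overload in floxed hearts raised 9 of the 10 tubulin genes, all but Tuba4a. The rise was 1.90-fold for Tubb4b and between 3.42-fold and 56.8-fold for the other 8 genes. Over all 10 genes the median log2 difference was 1.97, against 0.14 over the 13120 genes tested. The test was limma on log2(CPM + 1) over all 8 libraries, with a threshold of 0.05 on the Benjamini-Hochberg adjusted p, and log2 differences and their standard errors (SE) are on that scale, which understates changes of low genes. In this comparison 27.9% of all genes tested passed as higher and 14.5% as lower. In each of the 9 genes both floxed TAC libraries lay above both floxed sham libraries, which was so for 46.7% of all genes. Over all genes 3655 passed as higher and 1907 as lower, a split that became 2970 and 2596 with RLE scaling, which moved the median of all genes from 0.14 to 0.0013; the count of 9 tubulin genes was the same, with log2 differences from 0.78 (Tubb4b) to 4.72 (Tubb3).

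**Figure D1:**
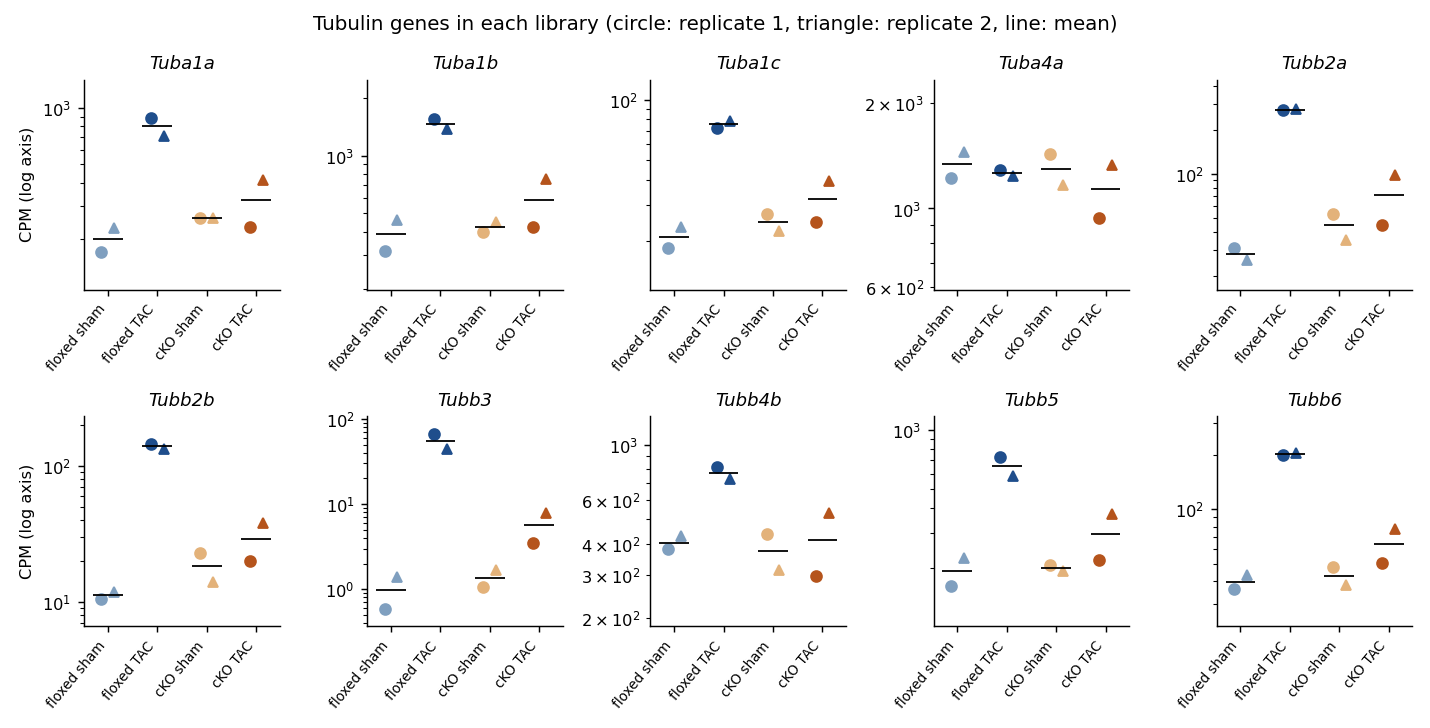
Level of each tubulin gene in CPM (vertical log axis, a separate range in each panel) in the 4 groups, with circles for replicate 1, triangles for replicate 2 and a line at the mean. Both floxed TAC libraries lie above all other libraries in every panel but that of Tuba4a, and cKO TAC 2 lies above cKO TAC 1 in all 10 panels.

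Among the α-tubulins, the 3 genes of the Tuba1 group rose together in floxed hearts. Tuba1b was at 318 and 459 CPM in the floxed sham libraries and at 1560 and 1369.9 CPM in the floxed TAC libraries, a log2 difference of 1.93 (SE 0.25, limma adjusted p = 0.000294). Tuba1a was at 171 and 228 CPM in floxed sham and at 888 and 709 CPM in floxed TAC libraries, a log2 difference of 2.002 (SE 0.24, limma adjusted p = 0.000211). Tuba1c was at 18.4 and 23.4 CPM and at 72.7 and 78.4 CPM, a log2 difference of 1.82 (SE 0.21, limma adjusted p = 0.00018). The groups were apart by far more than their spread in each of these genes, and the size of the rise, 3.62-fold to 4.01-fold, was alike. The sum of the 3 genes and Gm6682, a processed pseudogene that shares 29.2% to 34.7% of their windows and is listed as a gene of its own, went from 668 ± 156 to 2575 ± 289 CPM (SD, n = 2).

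Tuba4a, whose coding sequence ends in the glutamate codon shown above, did not pass the test in any comparison. It was at 1222 and 1451 CPM in floxed sham, 1290.3 and 1233 CPM in floxed TAC, 1426 and 1162 CPM in cKO sham and 941 and 1328 CPM in cKO TAC libraries. The groups overlapped in all 4 pairings of genotype and surgery. Its log2 difference in floxed hearts was -0.08, with a 95% interval from -0.48 to 0.32, which leaves room for a small change in either direction. The share of Tuba4a in the reads of the 4 α-tubulin genes was 70.7% and 67.2% in floxed sham and 33.9% and 36.4% in floxed TAC libraries. In cKO hearts it was 67.6% and 61.5% after sham and 58.2% and 52.4% after TAC. In every library outside floxed TAC most reads of these 4 genes came from Tuba4a, whereas in floxed TAC libraries Tuba1b held the largest share, at 40.9% and 40.4%. These are not shares of transcripts. Tuba4a has 2.84 kb of exon against 1.74 to 1.98 kb in the Tuba1 genes, its windows are nearly all unique, and Gm6682 is not counted. Per kb of exon, cKO TAC hearts had 399 ± 96.4 CPM of Tuba4a, 337 ± 135 of Tuba1b and 178 ± 71.9 of Tuba1a.

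**Figure D2:**
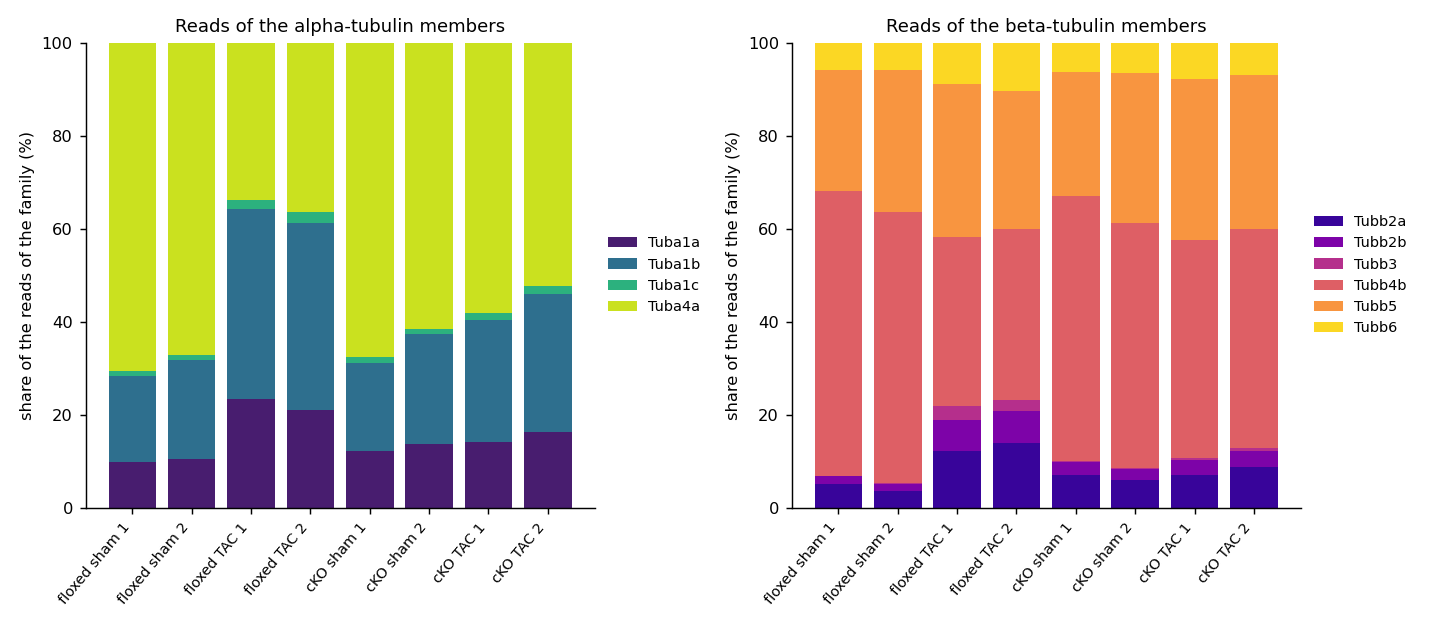
Share of each gene in the reads of the 4 α-tubulin genes (left) and of the 6 β-tubulin genes (right), in percent, 1 stacked bar per library. The bars of floxed TAC stand apart, with Tuba4a at 33.9% and 36.4% and Tubb4b at 36.4% and 36.9%, below every other library.

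The β-tubulins differed more widely among themselves. Tubb3 had the largest rise in floxed hearts, from 0.584 and 1.38 CPM to 67.0 and 44.6 CPM, a log2 difference of 4.84 (SE 0.36, limma adjusted p = 2.13e-05). Its 56.8-fold ratio of means rests on few sham reads and was 95.6-fold without floxed sham 2 and 40.4-fold without floxed sham 1. Tubb2b, a β-tubulin of the developing nervous system, was at 10.6 and 11.9 CPM in floxed sham and at 144 and 134 CPM in floxed TAC libraries, a log2 difference of 3.51 (SE 0.29, limma adjusted p = 3.00e-05). Its neighbour Tubb2a went from 30.9 and 25.6 CPM to 273 and 276 CPM, a log2 difference of 3.24 (SE 0.31, limma adjusted p = 6.81e-05). These 3 genes were among the lowest of the family in sham hearts and had the largest folds. Tuba1c, however, was lower than Tubb2a in floxed sham hearts (means of 20.9 and 28.3 CPM) and rose 3.62-fold. The sum of Tubb2a and Tubb2b went from 39.5 ± 2.79 to 414 ± 5.45 CPM (SD, n = 2).

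The more abundant β-tubulins rose by smaller folds. Tubb6, a β-tubulin found mainly outside the brain, was at 36.0 and 43.5 CPM in floxed sham and at 199.7 and 203 CPM in floxed TAC libraries, a log2 difference of 2.32 (SE 0.20, limma adjusted p = 3.61e-05). Tubb5 went from 161 and 224 CPM to 731 and 584 CPM, a log2 difference of 1.78 (SE 0.24, limma adjusted p = 0.000331). Tubb4b, the most abundant of them in sham hearts, went from 379 and 428 CPM to 811 and 726 CPM, a log2 difference of 0.93 (SE 0.24, limma adjusted p = 0.0126). Tubb4b had the smallest rise of the 9 genes, and its call was lost without floxed sham 1 (limma adjusted p = 0.0847) and without floxed TAC 1 (0.0747). Its share in the β-tubulin reads was 59.8% on average in floxed sham and 36.7% in floxed TAC hearts, while that of Tubb2a went from 4.24% to 13.1% and that of Tubb5 from 28.3% to 31.3%.

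The upstream regions of Tubb2a and Tubb4b are shown because these β-tubulin genes rose in the same hearts by very different folds, 9.71-fold and 1.90-fold. Each region lies outside the annotated span of its own gene, and exons of other genes were not looked for. Each is the 250 bases before the RefSeq start on GRCm38.p6, in lower case with matches to the motifs searched in capitals.
Tubb2a (chr13:34078009-34078258, minus strand): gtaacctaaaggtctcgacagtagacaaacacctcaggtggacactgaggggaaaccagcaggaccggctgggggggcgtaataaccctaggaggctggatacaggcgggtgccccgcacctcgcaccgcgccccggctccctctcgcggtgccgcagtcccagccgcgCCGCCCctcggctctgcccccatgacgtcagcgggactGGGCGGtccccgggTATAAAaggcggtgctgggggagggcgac
Tubb4b (chr2:25224703-25224952, minus strand): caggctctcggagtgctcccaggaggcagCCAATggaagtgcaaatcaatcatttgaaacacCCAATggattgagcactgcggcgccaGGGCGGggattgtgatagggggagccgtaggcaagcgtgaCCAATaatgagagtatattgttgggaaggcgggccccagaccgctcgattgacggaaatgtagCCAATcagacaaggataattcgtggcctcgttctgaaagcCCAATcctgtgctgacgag
The motifs searched on both strands were the GC box GGGCGG, the CCAAT box CCAAT, the TATA box TATAAA, the AP-1 site TGANTCA, the E-box CACGTG and the CArG box. The Tubb2a region holds 2 GC boxes and 1 TATA box and no CCAAT box, and the Tubb4b region holds 5 CCAAT boxes and 1 GC box and no TATA box. Of the 8 tubulin genes matched in the RefSeq promoter table, 6 hold a GC box, 5 a CCAAT box, 1 a TATA box, 1 an E-box and none an AP-1 site or a CArG box. Among all 32851 promoters of the table these shares were 32.7%, 33.9%, 12.4%, 6.02%, 6.75% and 1.47%. A match in these letters is a description and not evidence of binding.

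In cKO hearts none of the 10 tubulin genes passed the test for TAC against sham by limma, where 2.09% of all genes passed as higher. At an unadjusted p under 0.05 there were 2, Tubb3 and Tubb6, and DESeq2 on the recovered reads called 1, Tubb3, where it called 4.02% of all genes as higher. The median log2 difference of the family was 0.47, against 0.02 over all genes. Both cKO TAC libraries lay above both cKO sham libraries for Tubb3, Tubb5 and Tubb6, 3 of 10, against 23.0% of all genes. Tubb3 was at 1.07 and 1.66 CPM in cKO sham and at 3.48 and 7.95 CPM in cKO TAC libraries, a log2 difference of 1.43 (SE 0.36, limma adjusted p = 0.0756). Tubb6 was at 47.7 and 38.2 CPM in cKO sham and at 50.3 and 78.1 CPM in cKO TAC libraries (log2 difference 0.54, SE 0.20, limma adjusted p = 0.212). Tubb5 was at 206 and 193 CPM and at 219 and 373 CPM (log2 difference 0.52, SE 0.24, limma adjusted p = 0.318).

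The other members overlapped between sham and TAC in cKO hearts. Tuba1b was at 397 and 447 CPM after sham and at 421 and 754 CPM after TAC. Tuba1a was at 258 and 257 CPM and at 230.03 and 413 CPM. Tubb2a was at 53.3 and 35.2 CPM and at 44.3 and 98.4 CPM, and Tubb2b at 22.8 and 14.1 CPM and at 20.1 and 38.4 CPM. In each of these genes cKO TAC 1 lay below the higher sham library and cKO TAC 2 above both. Tuba1c (27.1 and 22.5 CPM, then 24.9 and 39.8 CPM) and Tubb4b (437 and 313 CPM, then 297 and 529 CPM) had the same layout. For the 8 genes that did not reach an unadjusted p of 0.05, all 95% intervals included 0 and the upper bounds ran from 0.19 (Tuba4a) to 1.30 (Tubb2a) on the log2 scale.

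The cKO TAC libraries differed from each other throughout the family. All 10 genes were higher in cKO TAC 2 than in cKO TAC 1, by 1.41-fold (Tuba4a) to 2.29-fold (Tubb3), whereas 63.0% of all genes tested were higher in cKO TAC 2. cKO TAC 1 was above both cKO sham libraries for 3 genes and cKO TAC 2 for 9. Nppa, the atrial natriuretic peptide gene that marks load on the ventricle, stood the other way round, at 2171 CPM in cKO TAC 1 and 1409 CPM in cKO TAC 2, against 286 and 248 CPM in cKO sham libraries and 4033 and 3323 CPM in floxed TAC libraries. Without cKO TAC 1, 5 tubulin genes passed as higher in cKO hearts by limma (Tubb2a, Tubb2b, Tubb3, Tubb5 and Tubb6), where 3.91% of all genes did. In that fit cKO TAC 2, 1 of the libraries with atrial transcripts, stands alone for its group and is assumed to vary like the others. Without cKO TAC 2, or without the 3 libraries with atrial transcripts, none passed.

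In sham hearts the genotypes were not told apart in any tubulin gene. None of the 10 passed the limma test for cKO against floxed sham, none had an unadjusted p under 0.05, and 0.0534% of all genes passed in either direction; no other tool or alternative run called any of them. The log2 differences ran from -0.12 (Tubb4b) to 0.63 (Tubb2b). Tuba1a, Tubb2a and Tubb2b were higher in both cKO sham than in both floxed sham libraries, with limma adjusted p of 0.727, 0.697 and 0.655.

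After TAC, 9 of the 10 genes were lower in cKO than in floxed hearts, again all but Tuba4a. Of all genes tested, 16.5% passed as lower and 8.39% as higher in this comparison. The deficits were 9.77-fold for Tubb3, 4.75-fold for Tubb2b, 3.84-fold for Tubb2a, 3.14-fold for Tubb6 and 1.86-fold to 2.49-fold for Tuba1a, Tuba1b, Tuba1c, Tubb4b and Tubb5. Without cKO TAC 2 those of Tubb3 and Tubb2a were 16.1-fold and 6.19-fold, and without cKO TAC 1 they were 7.02-fold and 2.79-fold. In each of the 9 genes both cKO TAC libraries lay below both floxed TAC libraries, which was so for 40.2% of all genes. The limma adjusted p ran from 0.00102 (Tubb3) to 0.0205 (Tubb4b). Tubb4b lost its call without floxed TAC 1, without floxed TAC 2 or without cKO TAC 1, with limma adjusted p of 0.111, 0.0744 and 0.106, and Tubb5 without floxed TAC 1 (0.0585). This comparison shares its floxed TAC libraries with the floxed response above and its cKO TAC libraries with the cKO response.

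The test of the difference between both TAC responses, the genotype by surgery interaction, was passed by 8 of the 10 genes. In all 8 the response in cKO hearts was smaller than in floxed hearts, while 9.18% of all genes passed in that direction and 4.93% in the other. The log2 difference between responses (cKO minus floxed) was -3.41 for Tubb3 (SE 0.51, limma adjusted p = 0.00616), -2.90 for Tubb2b (SE 0.40, adjusted p = 0.00513 by limma) and -2.64 for Tubb2a (SE 0.44, adjusted p = 0.00893 by limma). Those of Tubb6 (-1.78), Tuba1a (-1.74), Tuba1b (-1.51), Tuba1c (-1.48) and Tubb5 (-1.26) had limma adjusted p from 0.00726 to 0.0368. Tubb4b (-0.83, SE 0.35, limma adjusted p = 0.135) and Tuba4a (-0.13, SE 0.25, 0.771) did not pass. Tubb2a, Tubb2b, Tubb3 and Tubb6 passed under each of 17 alternatives. The calls of Tuba1a, Tuba1b, Tuba1c and Tubb5 were each lost with at least 1 library left out, and that of Tubb5 also by edgeR on all libraries (adjusted p = 0.0551). The count of 8 went to 4 without floxed sham 1, to 4 without floxed TAC 1 and to 5 without floxed TAC 2.

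**Figure D3:**
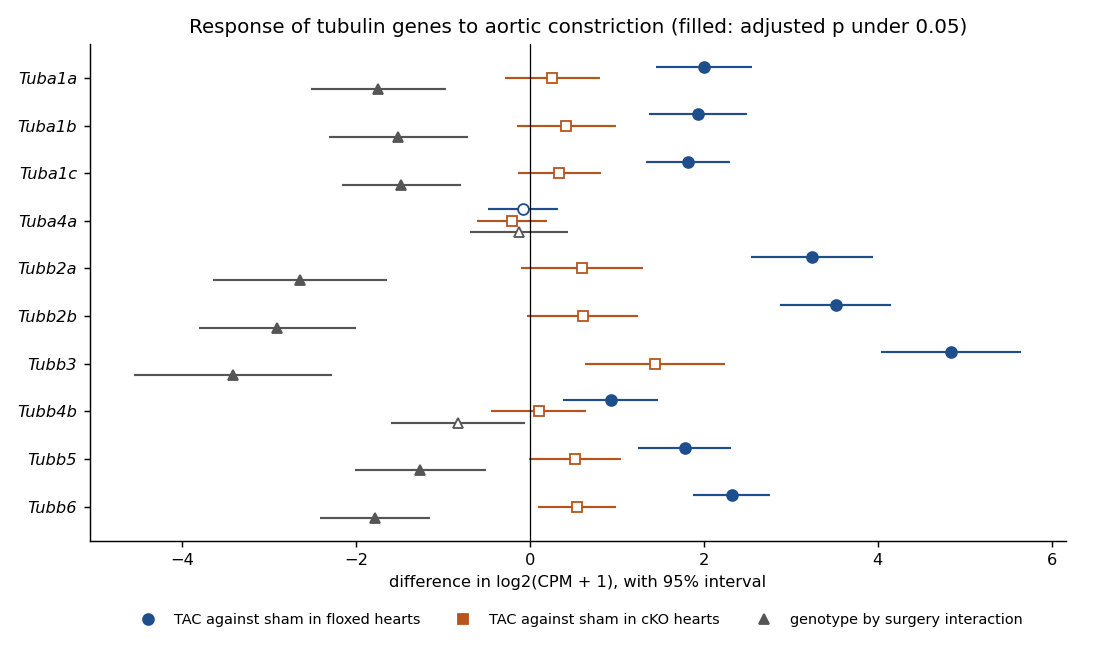
Difference in log2(CPM + 1) with its 95% interval for each tubulin gene, for TAC against sham in floxed hearts (circles), in cKO hearts (squares) and for the difference between the responses (triangles). Filled symbols passed the limma test: 9 circles, no square and 8 triangles, with Tubb3 farthest from 0 in all 3.

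Summed over the family, tubulin reads were 2621 ± 387 CPM in floxed sham and 5698 ± 480 CPM in floxed TAC hearts (SD, n = 2), and 2680 ± 278 and 2956 ± 996 CPM in cKO sham and TAC hearts. The sums of the 6 β-tubulin genes went from 676 ± 81.9 to 2097 ± 182 CPM in floxed hearts and from 681 ± 123 to 880 ± 347 CPM in cKO hearts. The sums of the 4 α-tubulin genes went from 1945 ± 305 to 3600 ± 298 CPM and from 1999 ± 155 to 2076 ± 649 CPM, sums in which Tuba4a is the largest term outside floxed TAC. In cKO hearts the Tuba1 group with Gm6682 was at 774 ± 30.7 CPM after sham and 1038 ± 410 CPM after TAC, and Tubb2a with Tubb2b at 62.7 ± 19.0 and 101 ± 51.2 CPM.

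Beyond the 10 members, 2 of 6 further tubulin genes were listed. Tuba8, an α-tubulin of striated muscle and testis, was at 264 and 289 CPM in floxed sham and at 359 and 308 CPM in floxed TAC libraries, and Tubb4a, the brain-typical β-tubulin, at 5.71 and 8.22 CPM and at 10.01 and 10.3 CPM. Neither passed the test in any comparison (limma adjusted p = 0.409 and 0.177 in floxed hearts). Tuba8 ends in a phenylalanine codon in place of the tyrosine codon (TTT in its coding sequence).

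Genes that make and place tubulin moved by smaller steps. Tubulin is folded by prefoldin and the CCT chaperonin and joined into dimers by the tubulin cofactors. Of 21 such genes 9 rose and none fell in floxed TAC hearts, with a median log2 difference of 0.33. Over all genes tested 27.9% passed as higher and 14.5% as lower, with a median of 0.14. The largest were Cct8 (0.91, SE 0.11) and Cct6a (0.63, SE 0.14), subunits of CCT, and the cofactors Tbcd (0.69, SE 0.14) and Tbcb (0.66, SE 0.12), with limma adjusted p from 0.000186 to 0.00553. None of the 21 passed in cKO hearts, where 2.09% of all genes passed as higher. In the interaction 5 passed as lower, against 9.18% of all genes. Tbcb had 40.1 and 43.5 CPM in cKO sham and 32.7 and 34.3 CPM in cKO TAC libraries (log2 difference -0.31, limma adjusted p = 0.232). A further list of 11 tested genes holds those of the γ-tubulin complex, which starts new microtubules, and the δ-tubulin gene Tubd1. Of these, 1 rose in floxed TAC hearts, Tubgcp4 (0.56, SE 0.18), and 1 fell, Mzt1 (-0.71, SE 0.16), and the median was 0.07.

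Tubulin mRNA is known to be degraded during translation when free dimers are plentiful, through TTC5, which reads the first residues of the nascent chain. The start of the coding sequence that encodes them is shown for 2 α and 2 β genes, with the codon that differs between the subunits in capitals.
Tuba1b: atgcgtgagTGC
Tuba4a: atgcgcgagTGC
Tubb2b: atgcgagagATC
Tubb3: atgagggagATC
Tuba4a, which did not pass the test, and Tuba1b, which rose, share the capitals. None of Ttc5, its adaptor Scaper and the deadenylase subunit Cnot11 passed in any comparison. In floxed hearts Ttc5 was at 9.15 and 8.70 CPM after sham and 12.1 and 11.9 CPM after TAC (log2 difference 0.39, limma adjusted p = 0.173), and Scaper at 26.0 and 21.8 CPM and at 18.2 and 18.3 CPM (-0.37, limma adjusted p = 0.0914).

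Among 4 genes of the cycle that removes and restores the terminal tyrosine, Svbp, the partner that vasohibins need, rose in floxed TAC hearts. It was at 15.8 and 13.5 CPM in floxed sham and at 23.4 and 20.7 CPM in floxed TAC libraries (0.56, SE 0.16, limma adjusted p = 0.0199). Vash2 was at 2.38 and 1.25 CPM in floxed TAC libraries and at no more than 0.634 CPM in the others; it entered the test through the group in which it is high, so its call is not counted. Vash1, the more abundant vasohibin, was at 53.5 and 56.8 CPM and at 80.6 and 80.8 CPM in the same groups, with an adjusted p by limma of 0.0505. Ttl, the ligase that restores the tyrosine, was at 45.02 and 47.6 CPM and at 55.3 and 53.5 CPM (0.23, SE 0.15, limma adjusted p = 0.236). None of the 4 passed in cKO hearts, where 2.09% of all genes passed as higher. None passed in the interaction, where 9.18% of all genes passed as lower and 4.93% as higher. Among genes of lysine acetylation, the deacetylase Hdac6 rose in floxed hearts (0.52, SE 0.15, limma adjusted p = 0.0192), while the acetylase Atat1 (-0.08) and the deacetylase Sirt2 (-0.14) did not pass.

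Glutamylation adds side chains of glutamate to the tails. Of 9 genes tested, Ttll1, the catalytic subunit of a polyglutamylase, fell in floxed TAC hearts from 76.8 and 72.6 CPM to 21.03 and 17.0 CPM (-1.92, SE 0.18, limma adjusted p = 5.08e-05), and Agtpbp1, a deglutamylase, fell by 1.08 on the log2 scale (SE 0.20). The ligases Ttll11 (1.06, SE 0.25) and Ttll7 (1.00, SE 0.27) rose. Thus 2 of the 9 passed as higher and 2 as lower, against 27.9% and 14.5% of all genes. Ttll1 was at 57.7 and 75.3 CPM in cKO sham and at 45.6 and 35.3 CPM in cKO TAC libraries (limma adjusted p = 0.0759), and its interaction was 1.22 (SE 0.25, limma adjusted p = 0.0156), a smaller decline in cKO hearts.

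Of 24 microtubule stabilisers and tip proteins, 8 rose and 5 fell in floxed TAC hearts, with a median of 0.25, and over all genes 27.9% rose and 14.5% fell, so the list is near the background. The largest changes were rises of Dclk1, a doublecortin-like kinase (2.49, SE 0.27), of the structural proteins Map1a (2.42, SE 0.28) and Map1b (2.07, SE 0.28) and of Map6, which makes microtubules resistant to cold (2.29, SE 0.40). Dclk1 was at 3.70 and 3.84 CPM in floxed sham and at 25.3 and 26.2 CPM in floxed TAC libraries. None of the 24 passed in cKO hearts, where 2.09% of all genes passed as higher. In the interaction 4 passed as lower, against 9.18% of all genes, among them Dclk1 (-2.06, limma adjusted p = 0.0112) and Map1a (-1.62, limma adjusted p = 0.0291). Map1b (-1.15, limma adjusted p = 0.0811) and Map6 (-1.46, limma adjusted p = 0.113) did not pass it.

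Of 10 destabilising and severing genes tested, 3 passed as higher and 1 as lower in floxed TAC hearts, against 27.9% and 14.5% of all genes. However, 2 of the 3, Kif2c and Fignl1, entered the test through TAC libraries alone, which leaves 1 as higher without them. Stmn1, which binds free dimers, was at 14.9 and 22.6 CPM after sham and at 56.1 and 52.6 CPM after TAC (1.51, SE 0.21, limma adjusted p = 0.000356). It also rose in cKO hearts, from 20.6 and 15.5 CPM to 33.0 and 38.1 CPM (0.95, SE 0.21, limma adjusted p = 0.0476), the only gene of the microtubule lists to pass there. The mitotic depolymerase Kif2c was at 0.454 and 0.66 CPM in floxed sham and at 6.77 and 10.1 CPM in floxed TAC libraries, and Fignl1 at 0.649 and 0.36 CPM and at 5.49 and 4.83 CPM, values given as a description. Fign, a severing enzyme, fell by 1.11 (SE 0.23). Of 18 genes of kinesin-1, kinesin-2, dynein and dynactin, 7 passed as higher and 2 as lower in floxed TAC hearts, against 27.9% and 14.5% of all genes. They include the dynein light chain Dynll1 (1.80, SE 0.20), the dynein light intermediate chain Dync1li1 (0.89, SE 0.16) and the kinesin-2 motor Kif3b (0.76, SE 0.14). The kinesin heavy chain Kif5c, at 0.389 and 0.48 CPM in floxed sham and 2.15 and 4.37 CPM in floxed TAC libraries, entered the test through TAC libraries alone, which leaves 6 as higher without it. None of the 18 passed in cKO hearts, where 2.09% of all genes passed as higher.

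**Figure D4:**
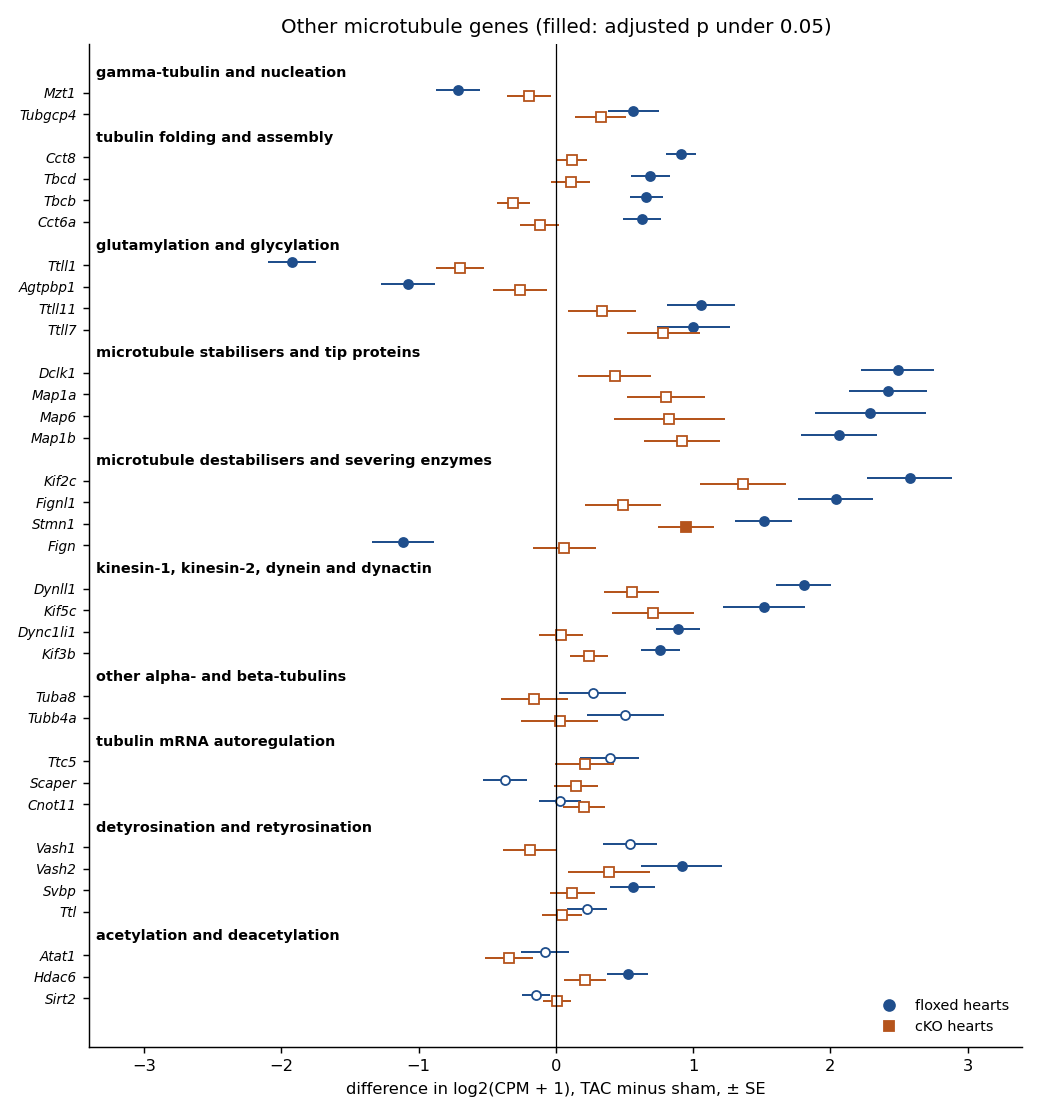
Difference in log2(CPM + 1) between TAC and sham, ± SE, for the named genes of the other microtubule lists, in floxed hearts (circles) and cKO hearts (squares), with filled symbols where the limma test was passed. Kif2c, Dclk1, Map1a, Map6, Map1b and Fignl1 lie above 2 in floxed hearts, Ttll1 lies lowest, and Stmn1 has the only filled square. The filled circles of Vash2, Kif2c, Fignl1 and Kif5c belong to genes that entered the test through TAC libraries alone.

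Some markers of other cell types moved with the tubulins and others did not. Over all genes tested, 27.9% passed as higher and 14.5% as lower in floxed hearts. In cKO hearts 2.09% passed as higher and 58 of 13120 genes as lower. All 8 macrophage markers rose in floxed TAC hearts, with sums of 211 to 219 CPM in floxed sham, 947 to 953 in floxed TAC, 188 to 211 in cKO sham and 356 to 496 in cKO TAC libraries, and 7 of 8 rose in cKO hearts. Of 8 fibroblast markers 6 rose and 1 fell in floxed hearts (sums 3189 to 3209, then 9730.4 to 12936 CPM), and 3 rose in cKO hearts (3142 to 3650, then 4175 to 5928 CPM). All 8 proliferation genes passed as higher in floxed hearts (sums 13.2 to 19.1, then 161 to 170.2 CPM). Of these, 2 (Ccnb1 and Plk1) entered the test through TAC libraries alone, which leaves 6 as higher without them. In cKO hearts 7 passed (8.63 to 13.9, then 66.0 to 86.4 CPM), a count not corrected for these 2 genes. Of 10 cardiomyocyte markers 1 rose and 6 fell in floxed hearts (64802 to 76629, then 34257 to 34430 CPM) and none passed in cKO hearts (52246 to 59603, then 48392 to 66570 CPM). None of 6 endothelial markers passed in any comparison (sums 1115 to 1117, then 1006 to 1079 CPM in floxed hearts, and 1256 to 1379, then 804 to 1344 CPM in cKO hearts). Of 7 smooth muscle and pericyte markers 3 rose and 2 fell in floxed hearts (726 to 736, then 971 to 996 CPM), and 1 rose and 1 fell in cKO hearts (684 to 762, then 693 to 999.9 CPM). The sums of the macrophage, fibroblast, proliferation, endothelial and smooth muscle lists were higher in cKO TAC 2 than in cKO TAC 1, and that of the cardiomyocyte list was lower. The part of these cell types in the tubulin results was not tested.

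Because Tubb3 and Tubb2b are known from neurons, neural and Schwann cell markers were set beside them. Sox10, a transcription factor of Schwann cells, was at no more than 3.25 CPM and S100b, a glial calcium-binding protein, at no more than 1.72 CPM in any library, and neither passed in any comparison. Nefl, Prph and Th were not listed. Uchl1, a ubiquitin hydrolase abundant in neurons, rose in floxed hearts from 7.79 and 10.1 CPM to 48.7 and 44.5 CPM (2.26, SE 0.21, limma adjusted p = 5.26e-05), and its values in cKO hearts were 12.3 and 13.8 CPM after sham and 18.6 and 27.9 CPM after TAC.

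Outside the family, the genes whose profile over the 8 libraries was nearest to the mean profile of the 10 tubulins were Dse, Kdelr3, Litaf, Gm6682 and Ncam1. Nearness was the root mean square distance between log2(CPM + 1) profiles centred on their means, over 8705 genes with at least 10 CPM on average. It was 0.104 for Dse, an epimerase of dermatan sulfate, 0.12 for Kdelr3, a receptor that returns proteins to the endoplasmic reticulum, 0.129 for Litaf, 0.13 for Gm6682, the pseudogene named above, and 0.133 for Ncam1, a cell adhesion molecule. The median over all these genes was 0.882. Among the tubulins themselves Tubb6 was nearest to their mean profile, at 0.103, and Tuba4a (0.896) and Tubb3 (1.08) were farthest, the first without a response to TAC that passed and the second with the largest.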

How the data were processed

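RNA of 8 left ventricle libraries was measured; per the labels' protocols, Trizol RNA went into stranded mRNA libraries sequenced as paired 50 bp reads. The submitters' processing notes name Bowtie2 2.2.6, HTSeq, DESeq2 and mm10, with no role or order. The deposited values are CPM, made by the authors from reads per gene and library total. Dividing by the value of 1 read gave whole numbers (tolerance 0.02 reads) for 100% of entries, which recovered the reads. The genes were named by a rule: all 10 tubulins, every gene of 4 short lists, up to 4 genes that passed with the largest change from each further microtubule list, and the 5 nearest profiles. The tubulin genes, the lists and the tests were chosen with earlier results of these data known. Of 190 list genes 171 were listed, 3 of them under a synonym.

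The test was limma 3.58.1 (R 4.3.3) with a trended variance on log2(CPM + 1), 1 coefficient per group over all 8 libraries, on the 13120 genes that reached 1 CPM in 2 or more libraries (319 removed), with Benjamini-Hochberg adjustment over all of them and a threshold of 0.05. Comparisons were TAC against sham within each genotype, genotype within each surgery, and their interaction. Alternatives were other pseudocounts, no filter, RLE and TMM scaling, edgeR 4.0.16 and DESeq2 1.42.0 on the recovered reads, only the groups compared, a replicate block, and left-out libraries. Sequences came from GRCm38 with GENCODE genes and, for promoters, from RefSeq. Tubb2b and Tubb6 promoters and the sequence of Tubb6 were not used here, and some markers and sequences are not reported here.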

Additional observations from a re-analysis of the deposited data

Results flagged for a closer look

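The TAC response differed between genotypes by the interaction test (limma, 2 libraries per group) in 8 tubulin genes, each with a smaller response in cKO than in floxed hearts. The log2 difference between responses was -1.744 for Tuba1a, -1.514 for Tuba1b, -1.477 for Tuba1c, -2.642 for Tubb2a, -2.904 for Tubb2b, -3.409 for Tubb3, -1.259 for Tubb5 and -1.777 for Tubb6. Over all genes tested, 9.18% passed as lower and 4.93% as higher in the interaction. In all 8 genes both floxed TAC libraries lay above both cKO TAC libraries, which was so for 40.2% of all genes. That layout concerns the TAC groups alone and is not a test of the interaction.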

How the results depend on the processing

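Of 890 recomputed values of the 50 single results of tubulin genes, 832 kept their direction and their side of the threshold, 24 lost the call, 8 gained one and 26 changed sign, none of them a called value; the causes were not tested. The number of tubulin genes called for TAC against sham in cKO hearts was 1 by DESeq2 and 0 to 5 with single libraries left out, and the number called in the interaction was 4 to 9. With a replicate block the counts stayed at 9, 0, 0, 9 and 8 in the order of the comparisons, and the block changed no call. Whether the replicate numbers pair the samples is not stated. The correlations of same-numbered deviations ran from -0.1055 to 0.0812, but with 2 libraries per group they cannot exclude a pairing or a shared batch. The 3 libraries with atrial transcripts are all replicate 2. RLE scaling moved the split of all genes from 1101 higher and 2162 lower to 1420 and 1747 for cKO against floxed TAC hearts, and from 647 and 1204 to 844 and 917 in the interaction; no tubulin gene changed sign under RLE or TMM scaling.

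None of the values that changed sign passed the test. With single libraries left out, the log2 difference of Tuba4a ran from -0.2023 to 0.0457 for TAC in floxed hearts, from -0.4525 to 0.0442 for TAC in cKO hearts, from -0.1958 to 0.0993 between sham groups, from -0.4226 to 0.0742 between TAC groups and from -0.3743 to 0.1224 in the interaction. For TAC in cKO hearts, Tuba1a ran from -0.1635 to 0.6794 and Tubb4b from -0.313 to 0.5161. Between sham groups, Tuba1b ran from -0.1228 to 0.4044, Tubb3 from -0.0222 to 0.5655, Tubb4b from -0.3636 to 0.1174, Tubb5 from -0.1674 to 0.3068 and Tubb6 from -0.0493 to 0.2627. The interaction of Tuba4a was 0.0057 by edgeR and 0.0045 by DESeq2. Without the 3 libraries with atrial transcripts, where the cKO response rests on 1 library per group, it was -0.1673 for Tuba1a, -0.1179 for Tuba1c, -0.262 for Tubb2a, -0.1702 for Tubb2b and -0.5534 for Tubb4b, that of Tuba4a in floxed hearts was 0.0457, and the sham differences of Tuba4a and Tubb4b were 0.2233 and 0.2038. Depth limited mainly Tubb3, with 9 reads in its lowest library.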
